A study of Drosophila melanogaster with 16 samples.

Results

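Heads of female flies were profiled 7 days after pentylenetetrazole (PTZ) was withdrawn and set against heads taken at the end of 7 days of PTZ feeding. The 2 groups were the 14th day and the 7th day, taken by array title. Flies of the 14th day had eaten food with PTZ at 8 mg/ml for 7 days and then normal food (NF) for another 7 days. Flies of the 7th day were, by title, still on PTZ, with 1 array in doubt as given below. Both groups used virgin Oregon-R wild type females, which were 3 to 4 days old when feeding began and were kept 30 to a vial. On every array, RNA of PTZ flies was hybridised against RNA of flies that ate NF throughout and were handled in parallel, so that each value is a log2 ratio of PTZ over NF and 0 means no difference. RNA came from pools of whole heads from several vials, and 14th day flies were 7 days older than 7th day flies, while the 2 RNAs of any array came from flies of 1 age. There were 4 arrays on the 14th day and 4 on the 7th day, of 16 in the series, and replicates 1 and 2 of each day carried PTZ in Cy5 and replicates 3 and 4 in Cy3. Each array was centred on its median, arrays with PTZ in Cy3 were turned in sign, and spots of 1 gene were averaged. The array holds 13059 features, each a gene or a pair of neighbouring unnamed spots, of which 5881 had values on at least 3 of the 4 arrays of each day, and 3190 of these were named genes, out of 6793 in all. The difference given throughout is the 14th day mean minus the 7th day mean, so that a positive difference means a higher PTZ over NF ratio after withdrawal.

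PTZ is a proconvulsant that blocks chloride currents through GABA-A receptors, and repeated doses are used in rodents to model the development of epilepsy. A head holds brain, compound eyes, cuticle, muscle and fat body, and its RNA mixes all of them, so fewer cells of a type and less RNA per cell cannot be told apart. A comparison of the last day of feeding with a day well after withdrawal asks which transcript changes need the drug to be present, which outlast it and which arise once it is gone.

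The labels do not settle all 8 arrays, and this bears on every value below. On the 14th day, replicates 2 and 3 ran against most of the other arrays as labelled. Across features, 14th day replicate 3 had a Spearman correlation of -0.520 with 7th day replicate 1 and of -0.486 with 7th day replicate 2. Replicate 2 of the 14th day stood at -0.377 with 7th day replicate 3 and at -0.369 with 14th day replicate 4, while replicates 2 and 3 of the 14th day stood at 0.350 with each other. Within 1 dye orientation the 14th day pairs were near 0, at -0.055 for replicates 1 and 2 and -0.038 for replicates 3 and 4. Each of these pairs holds 1 of the doubtful replicates 2 and 3, so its value cannot tell whether a label is swapped. The direction given by the labels was kept. Results are also given without replicates 2 and 3 of the 14th day and with their sign turned. Whether those 2 arrays carry a swapped dye label was not tested. A further label disagrees. The array titled 7th day replicate 4 has a treatment text that describes withdrawal, with a shift to normal media. Its title was followed, and its correlations with the other 7th day arrays were between -0.085 and -0.014. With 14th day replicates 1 to 4 it stood at -0.325, -0.117, 0.129 and 0.252. Whether this array came from flies after withdrawal was not tested.

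**Figure D1:**
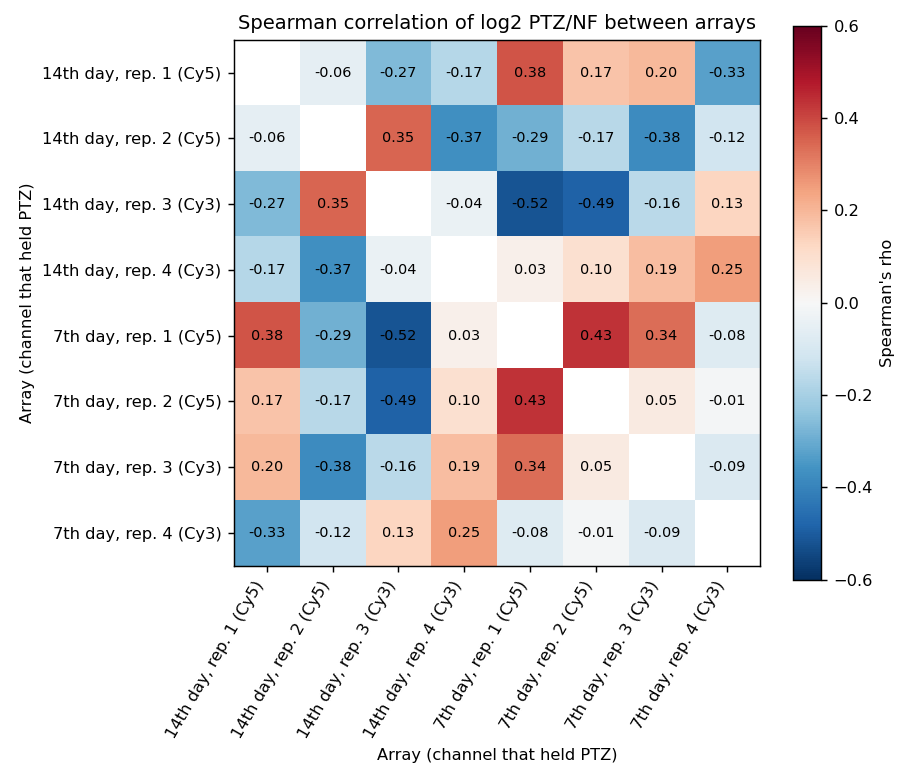
Spearman correlation of log2 PTZ/NF between each pair of the 8 arrays, across the features both measured; rows and columns are arrays, with the channel that held PTZ. The strongest negative values, -0.520 and -0.486, join 14th day replicate 3 to 7th day replicates 1 and 2.

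Arrays held a value for 10171 to 21961 of 27648 spots among 14th day arrays and 11358 to 17808 among 7th day arrays. Duplicate spots on 1 array had Spearman correlations of 0.475 to 0.715 among 14th day arrays and 0.470 to 0.735 among 7th day arrays. Of the markers of head tissues fixed for this comparison, trp and inaD of photoreceptors, nSyb of neurons, Gs2 of glia and fit and apolpp of fat body were measured well enough to be tested. The neuron marker nSyb averaged -0.25 on the 14th day and 0.21 on the 7th day, at a difference of -0.46, which was -0.0034 without 14th day replicates 2 and 3 and 0.18 with them turned. The fat body markers fit and apolpp differed by 0.50 and 0.61 in the other direction, and their days overlapped. These differences were 0.75 and 0.76 without those replicates and 0.33 and 0.43 with them turned. Fbp1 of fat body, not tested, went the other way, at -0.35 on 1 array of the 14th day and 0.22 on 2 of the 7th. On the 14th and 7th day trp averaged -0.18 and -0.046, inaD 0.036 and -0.18, and Gs2 0.15 and -0.18. The part of tissue makeup in the results was not tested. Of 5 ovary markers 1 is named on the array, osk, with a value on 1 array of the 14th day and 0 of the 7th day. Of 11 digestive tract markers 2 are named, of which Jon65Aiii averaged -0.38 on 4 arrays of the 14th day and -0.012 on 3 arrays of the 7th day.

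Taken over all features with the arrays as labelled, PTZ over NF on the 14th day did not follow the 7th day. That relation changed sign without 14th day replicates 2 and 3, as given below. No feature passed the test of the difference between the days. Limma with Benjamini-Hochberg adjustment called 0 of 5881 features at an adjusted p under 0.19, the highest false discovery rate used in the study (0.00% higher, 0.00% lower), and the smallest adjusted p was 0.648. At an unadjusted p under 0.05, 184 features were higher on the 14th day (3.13%) and 266 were lower (4.52%), or 223 and 193 with arrays centred on their mean. That is 450 features in either direction (7.65%). Without 14th day replicates 2 and 3, where 124 features reached that p, 26 of the 184 and 43 of the 266 were among them. The arrays of the days did not overlap for 167 features that lay higher on the 14th day (2.84%) and 187 that lay lower (3.18%), or 6.02% in all. Against 0, 0 of 6464 features passed on the 14th day, with 29 above (0.449%) and 112 below (1.73%) at an unadjusted p under 0.05, or 2.18% in all. That balance followed the doubtful arrays, with 72 above and 22 below without replicates 2 and 3 and 543 above and 70 below with them turned. On the 7th day 0 of 7289 passed, with 371 above (5.09%) and 241 below (3.31%) at that p, or 8.40% in all. The balance on the 7th day was 354 above and 342 below with arrays centred on their mean, and 1 above and 111 below with the trend and robust options of eBayes. Tested on simulated data drawn with the missing values and spread of these arrays, limma recovered 16% of features changed by 0.5 log2 units and 60% of those changed by 1 unit, with 200 changed at once.

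The means of the days varied inversely as labelled. Across the 5881 features, the Spearman correlation of the 14th day mean with the 7th day mean was -0.278. It was 0.315 with replicates 1 and 4 of the 14th day alone, -0.539 with replicates 2 and 3 alone, and 0.554 with replicates 2 and 3 turned. Replicates 1 and 4 did not run together either, at -0.170 with each other, and replicate 1 stood at -0.325 with 7th day replicate 4. The points share arrays and hybridisations, so these values describe the arrays and carry no test. The sign of the relation thus differed between the 2 pairs of 14th day arrays.

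**Figure D2:**
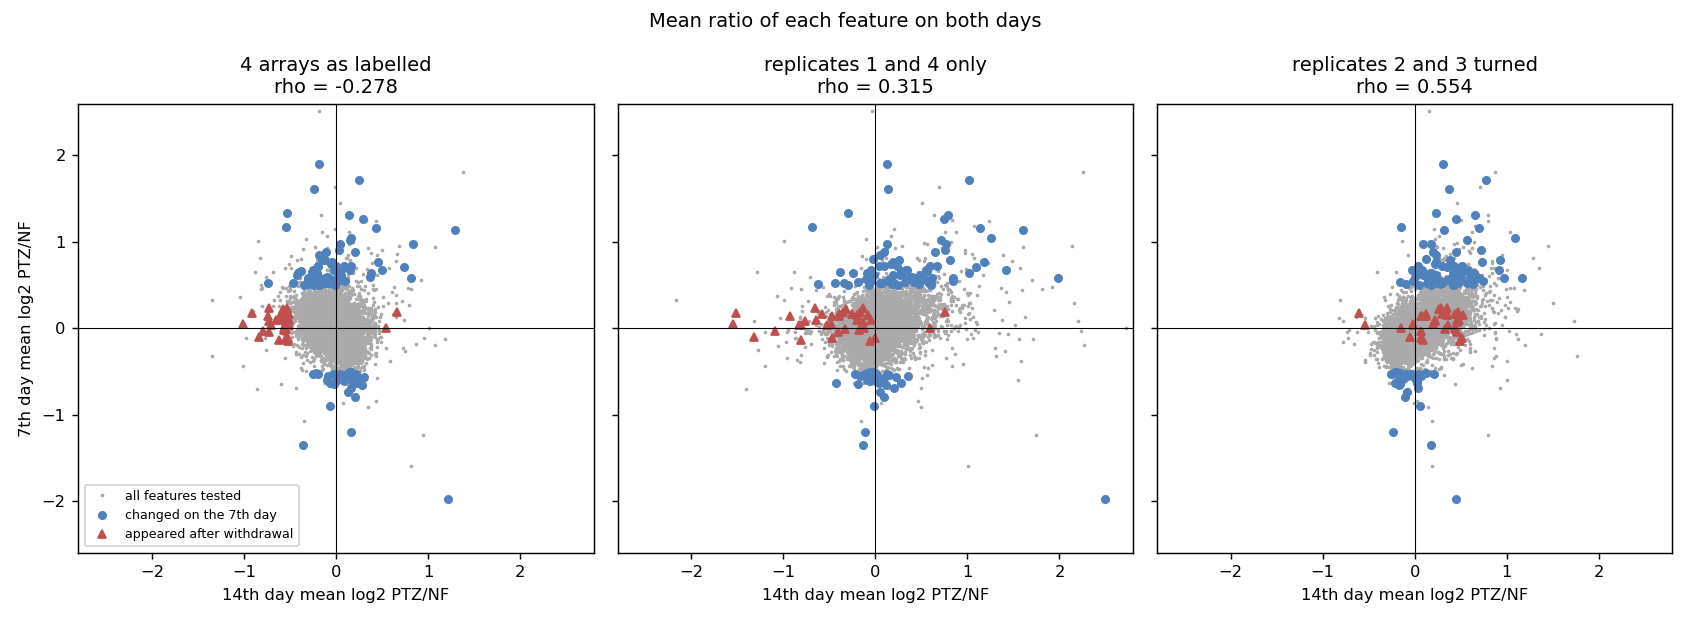
Mean log2 PTZ/NF of each of 5881 features on the 14th day (horizontal) and on the 7th day (vertical), with all 4 14th day arrays as labelled, with replicates 1 and 4 only, and with replicates 2 and 3 turned. Circles mark features changed on the 7th day and triangles those that appeared after withdrawal; the cloud leans down to the right at a correlation of -0.278 as labelled and up to the right at 0.315 with replicates 1 and 4.

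A feature was described as changed on the 7th day when its 7th day mean was at least 0.5 log2 units from 0 with every measured array on 1 side. This held for 113 features, 78 above 0 and 35 below 0, where 8.83% of all features had every 7th day array above 0 and 11.2% every one below it, and 26 of them were named genes, 13 in each direction. The members nearest the limit had a mean of 0.502 in size just inside and 0.499 just outside. The groups below were defined by these values, so their 7th day values are descriptions. Features that reversed were chosen by their 14th day values as well, so their days cannot overlap and their p-values are descriptions too. Of the 113, the 14th day arrays all lay on the other side of 0 for 9 (7.96%) and all on the same side for 2 (1.77%), while for 102 (90.3%) they lay on both sides. Over all features, the 14th day arrays all lay above 0 for 5.63% and all below 0 for 6.70%, so the share that reversed was near the background and the share that persisted was below it. With replicates 1 and 4 alone, 15 reversed (13.3%) and 46 persisted (40.7%), against 26.9% of all features with every measured value of that pair above 0 and 27.2% with every one below 0. Of these, 7 of the 15 and 19 of the 46 had a value on only 1 array of the pair. With replicates 2 and 3 turned, 0 reversed and 31 persisted (27.4%), against 14.4% of all features above 0 and 13.7% below 0.

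The features that lay above 0 on the 7th day had a median 7th day mean of 0.64 and a median 14th day mean of -0.088, which became 0.31 without replicates 2 and 3. Those that lay below 0 on the 7th day had a median 7th day mean of -0.57 and a median 14th day mean of 0.16, or -0.011 without those replicates. The 14th day mean was on the other side of 0 from the 7th day mean for 75 of the 113 (66.4%) as labelled, for 33 (29.2%) without replicates 2 and 3 and for 17 (15.0%) with them turned. Single 14th day arrays differed widely. Of the changed features it measured, the array lay on the 7th day side for 53.2% in replicate 1, 23.1% in replicate 2, 18.0% in replicate 3 and 74.2% in replicate 4. Without 7th day replicate 4 the rule found 520 changed features in place of 113, of which 52 reversed (10.0%). Of the 113, 28 reversed without 14th day replicate 1 (24.8%) and 32 without 14th day replicate 4 (28.3%). Fewer arrays had to agree in those settings, and the share over all features was not counted for them. These shares therefore cannot be set against the background of all 4 arrays.

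**Figure D3:**
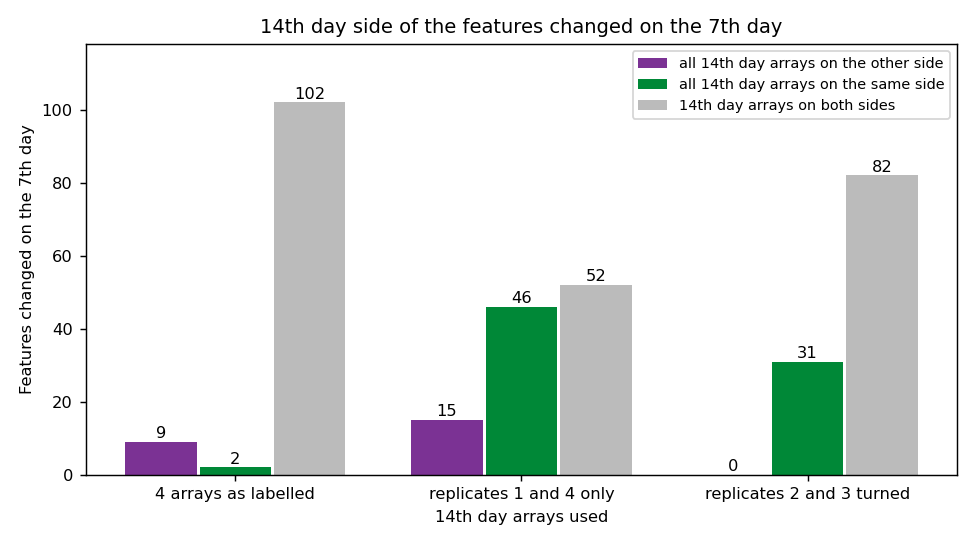
Number of the 113 features changed on the 7th day (vertical axis) whose 14th day arrays all lay on the other side of 0, all on the same side, or on both sides, for 3 uses of the 14th day arrays. As labelled 9 lay on the other side and 2 on the same side; with replicates 1 and 4 only, 15 and 46.

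The 5 named genes among the 9 that reversed were dhd, His2Av, HIP and Jon65Aiv, below 0 on the 7th day, and CG9689, above 0 on it. Deadhead (dhd), a thioredoxin of the female germline, had log2 ratios of 2.49, 0.11 and 1.05 in replicates 1 to 3 on the 14th day, against -3.06, -2.62 and -0.25 in replicates 1, 3 and 4 on the 7th day. Its days could not overlap by the rule for reversal, and 2 of its 3 7th day arrays lay far from the third. Its difference was 3.19 (SE 0.79, unadjusted p = 0.00314, limma adjusted p = 0.648), the largest of any feature tested. The germline and dorso-ventral axis list, which does not hold dhd, has genes that act in egg formation and embryo patterning. It had medians of 0.0039 (14th day) and -0.16 (7th day) over 14 members. Of these, 8 had a positive difference (57.1%), against 49.9% of all features, at a median difference of 0.084. The 14th day arrays of the list had medians between -0.032 and 0.12, against -0.34 to 0.033 for those of the 7th day. The part of ovary RNA in the ratio of dhd was not tested.

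His2Av, the H2A variant histone, lay at 0.18, 0.14, 0.13 and 0.22 on the 14th day, against -1.32, -0.38, -0.92 and -0.17 on the 7th day. The 14th day arrays were close together (SD 0.039, n = 4), those of the 7th day were widely spread (SD 0.52, n = 4), and the difference was 0.86 (SE 0.24, unadjusted p = 0.00504, limma adjusted p = 0.648). HIP, which encodes a partner of the chaperone Hsc70 and has the near copy HIP-R beside it on the X chromosome, lay at 0.14, 0.097, 0.59 and 0.041 on the 14th day, against -1.17, -0.81, -0.27 and -0.050 on the 7th day. The spot cannot tell these copies apart with certainty. The days of HIP could not overlap by the same rule, and its difference was 0.79 (SE 0.26).

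Jon65Aiv, a Jonah serine protease of the digestive tract, lay at 0.35, 0.12 and 0.016 in replicates 1 to 3 on the 14th day, against -0.77, -0.76 and -0.14 in replicates 1, 2 and 4 on the 7th day. Its difference was 0.72, while its near copy Jon65Aiii stood lower on the 14th day than on the 7th. CG9689 lay at -0.63, -0.16 and -0.20 in replicates 1 to 3 on the 14th day, against 0.40, 0.34, 0.80 and 0.50 on the 7th day, at a difference of -0.84 (SE 0.21). The other 4 reversals were unnamed spot pairs. With the sign of replicates 2 and 3 turned, the differences of the 5 named genes were 0.45 for HIP to 2.42 for dhd, and -0.60 for CG9689. Their sign was kept, but the choice by 7th day values sets it in large part. With those arrays turned, the 14th day arrays of all 5 lay on both sides of 0, so none reversed.

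Persistence was seen in Cog4 and 1 unnamed spot pair. Cog4, a subunit of the Golgi tethering complex COG, lay at -0.092, -0.15, -0.53 and -0.094 on the 14th day, against -0.59, -0.67 and -0.28 in replicates 1, 2 and 4 on the 7th day. All 7 values were below 0, and the 14th day mean of -0.22 (SD 0.21, n = 4) was nearer to 0 than the 7th day mean of -0.51 (SD 0.21, n = 3). The difference of 0.30 had an SE of 0.20 and a limma adjusted p of 0.692. The unnamed pair averaged 0.74 on the 14th day and 0.71 on the 7th day.

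Among the other 20 named genes changed on the 7th day, 8 lay below 0 and averaged near 0 on the 14th day, from mRpS34 at -0.064 to r-l, which encodes UMP synthase of pyrimidine synthesis, at 0.22 (SD 0.40, n = 4). The mitochondrial ribosomal protein gene mRpS34 lay at 0.12, -0.40, 0.17 and -0.14 on the 14th day, against -0.50, -1.25, -0.64 and -1.20 on the 7th day. Its days did not overlap, and its difference of 0.83 (SE 0.23, unadjusted p = 0.00394) was 0.89 without replicates 2 and 3 and 0.95 with them turned. GstD1, a glutathione S-transferase of detoxification, lay at 0.26, 0.36, -0.079 and -0.63 on the 14th day, against -1.06, -0.53, -0.51 and -0.46 on the 7th day, and its days overlapped. Of the genes above 0 on the 7th day, CG30154 lay at -0.12, -0.40 and 0.072 in replicates 1, 2 and 4 on the 14th day, against 0.58, 0.61, 1.5 and 0.54 on the 7th day. Its days did not overlap, at a difference of -0.96 (SE 0.27, limma adjusted p = 0.648). All 12 named genes of this kind, CG30154 included, had a 14th day mean below 0, from -0.38 for CG10748 to -0.0095 for CAH15. Without replicates 2 and 3, 8 of the 12 had a 14th day mean above 0, on the 7th day side, from 0.14 for CG10466 to 0.60 for CAH15, and 7 of those 8 rest on 1 array.

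Of the 113 changed features, 38 had days that did not overlap, 21 of them among the 35 below 0 on the 7th day and 17 among the 78 above 0, or 33.6% against 6.02% of all features, and with replicates 2 and 3 turned 18 had. The rule used the 7th day values, so this count is set by the choice in part and carries no test.

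The genes whose arrays separated the days are given next; they were named by the smallest p of the difference among named genes whose arrays did not overlap, 12 in each direction, so that their separation is how they were chosen. Those above on the 14th day had differences from 0.53 to 3.19 and unadjusted p-values from 0.00314 to 0.012. Besides dhd, mRpS34, His2Av and HIP they held genes of muscle, glutamine synthesis and glycolysis. Act88F, the actin of the flight muscles, lay at 0.32, 0.42, 0.16 and 0.006 on the 14th day, against -0.47, -0.42, -0.38 and -0.29 on the 7th day. Its spread was small on both days, with a 14th day mean of 0.22 (SD 0.18, n = 4) and a 7th day mean of -0.39 (SD 0.078, n = 4), and other actin genes share much of its sequence.

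Gs1, a glutamine synthetase, which makes glutamine from glutamate, lay at 0.44, 0.18 and 0.44 in replicates 1, 3 and 4 on the 14th day, against -0.33, -0.70, -0.16 and -0.19 on the 7th day. Its difference was 0.70 (SE 0.20) and 0.78 without replicates 2 and 3. Gapdh1, the glycolytic glyceraldehyde-3-phosphate dehydrogenase, lay at 0.14, 0.19, 0.44 and -0.10 on the 14th day, against -0.58, -0.95, -0.20 and -0.20 on the 7th day. The days did not overlap, but the lowest 14th day array, replicate 4, lay close to 7th day replicates 3 and 4.

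CG2267 and CG5708 each had 4 arrays above 0 on the 14th day and 4 below 0 on the 7th day, at differences of 0.58 and 0.62. With replicates 2 and 3 turned the difference of CG5708 was 0.054. CG10214 had 4 arrays above 0 on the 14th day and 4 below 0 on the 7th day as well, at 0.53. The coactivator of the ecdysone receptor taiman (tai) and CG11089 each had 3 arrays above 0 on the 14th day and 4 below 0 on the 7th day, at 0.60 and 0.59.

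Those below on the 14th day had differences from -1.27 to -0.63 and unadjusted p-values from 0.00142 to 0.0067. Of the 12, 10 had no value on 14th day replicate 4, against 1 of the 12 above. That array lacked a value for 15.9% of all features tested, for 48.9% of the 266 lower at an unadjusted p under 0.05 and for 5.43% of the 184 higher. For these 10 genes the value without replicates 2 and 3 rests on replicate 1 alone. The part of these missing values in the result was not tested.

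CG10137 had the smallest p, with -0.49, -0.41 and -0.59 in replicates 1 to 3 on the 14th day, against 0.36, 0.36 and 0.39 in replicates 1, 2 and 4 on the 7th day (difference -0.87, SE 0.19, unadjusted p = 0.00142, limma adjusted p = 0.648). Uros1, named for uroporphyrinogen III synthase of haem synthesis, had the lowest difference of the 12, with -0.81, -0.65 and -1.0 in replicates 1 to 3 on the 14th day, against 0.21, 0.55, 1.26 and -0.21 on the 7th day. Its 7th day arrays lay on both sides of 0. Cyp6a13, a cytochrome P450, lay at -0.80, -0.32 and -0.73 in replicates 1 to 3 on the 14th day, against 0.36, 0.48, 0.41 and -0.23 on the 7th day. The days did not overlap, though its 7th day replicate 4 lay close to the 14th day arrays.

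SerRS, a seryl-tRNA synthetase, lay at -1.07, -0.32 and -0.52 in replicates 1 to 3 on the 14th day, against 0.67, 0.39 and 0.048 in replicates 1, 2 and 4 on the 7th day. Dnali1, a light intermediate chain of axonemal dynein, differed by -0.63, CG8813 by -0.84, CG1544 by -1.05, CG1582 by -0.82 and kat80, the katanin subunit that works in microtubule severing, by -0.78. With replicates 2 and 3 turned, CG1544 and CG1582 changed sign, to 0.12 and 0.056, and kat80 stood at -0.038.

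**Figure D4:**
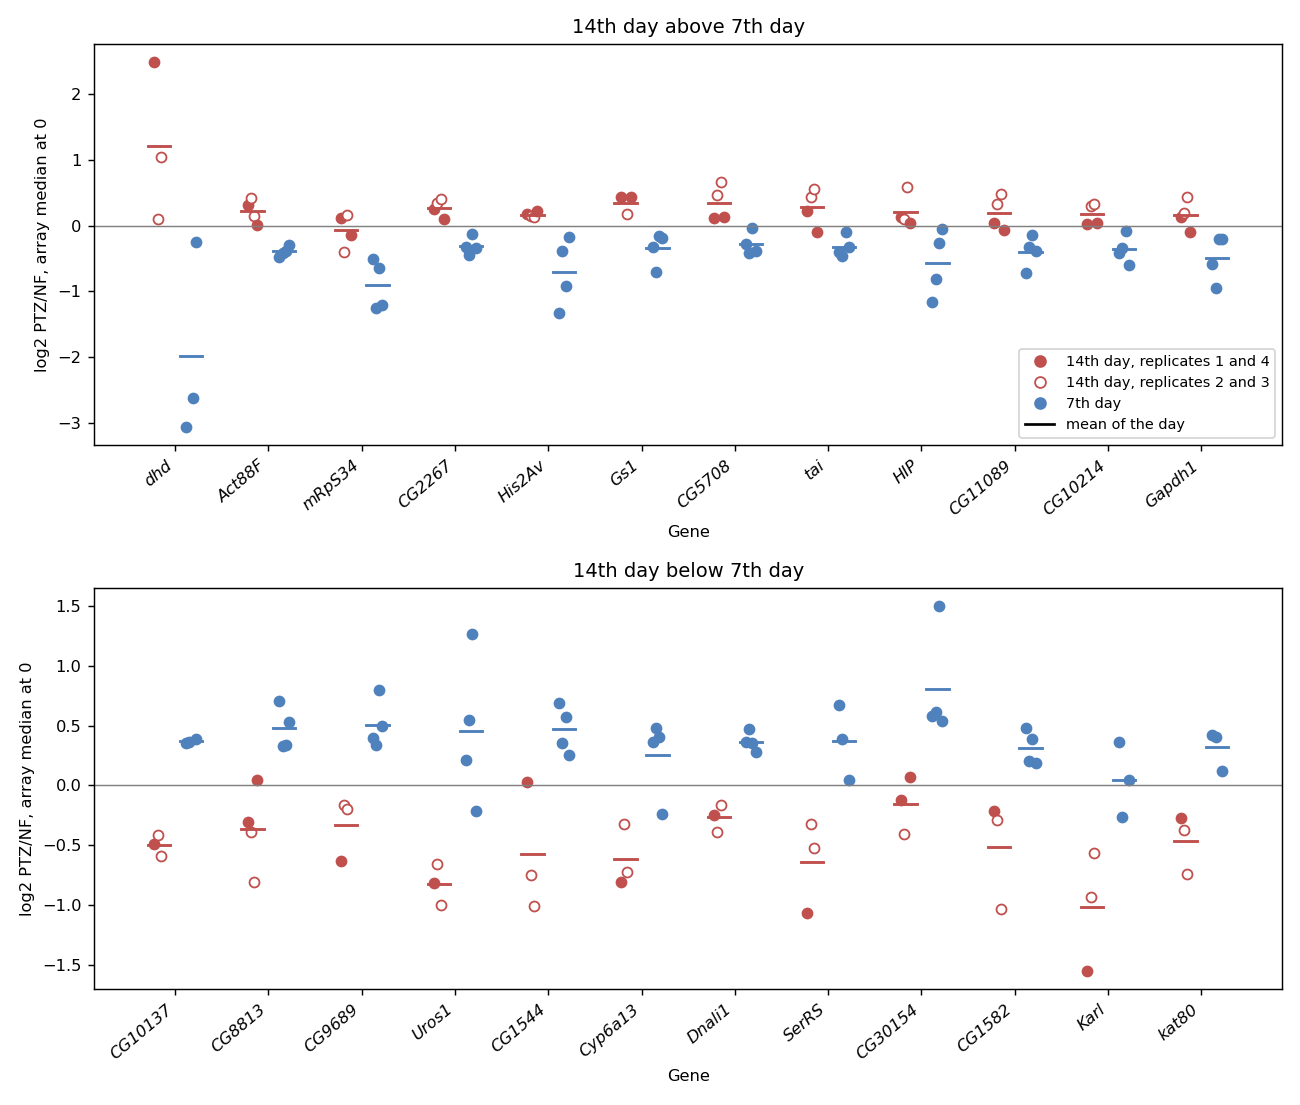
Log2 PTZ/NF on each array for the 12 genes above (upper panel) and the 12 below (lower panel) on the 14th day that were named for the difference, with 14th day points left of 7th day points and a line at each mean. Open circles are 14th day replicates 2 and 3; in the lower panel 10 genes have 3 points on the 14th day, since replicate 4 has no value.

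A change was said to appear after withdrawal when the 14th day mean was at least 0.5 log2 units from 0 with every measured array on 1 side, while the 7th day mean lay within 0.25 of 0 with arrays on both sides. As labelled this held for 36 of the 5881 features, 34 below 0 and 2 above 0, and 21 were named genes. Of the 36, 26 (72.2%) had no value on 14th day replicate 4 and 24 (66.7%) none on 7th day replicate 3, against 15.9% and 16.7% of all features tested. Only 4 remained in a count restricted to features measured on all 8 arrays. Without 14th day replicates 2 and 3, 15 of the 36 still met the rule, out of 176, of which 121 lay above 0 and 55 below. With those arrays turned 108 features met it, 102 above 0 and 6 below. None of the 36 could, since all had a value on at least 1 turned array. The direction of the changes that appeared thus followed the doubtful arrays.

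Karl, a lipocalin, was the farthest from 0 of the named genes, with -1.55, -0.93 and -0.56 in replicates 1 to 3 on the 14th day, against 0.36, -0.26 and 0.042 in replicates 1, 2 and 4 on the 7th day. Its difference was -1.06 (SE 0.30, limma adjusted p = 0.648). PPO2, a prophenoloxidase of crystal cells, blood cells that serve melanisation, lay at -0.41, -0.95 and -0.84 in replicates 1 to 3 on the 14th day, against -0.23, -0.21 and 0.29 in replicates 1, 2 and 4 on the 7th day. Of the 10 blood cell genes named on the array, 6 were tested and 4 had a 14th day mean below 0, with the same count on the 7th day.

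Vps4, the ATPase that takes apart the ESCRT-III coat, lay at -0.64, -0.61 and -0.69 in replicates 1 to 3 on the 14th day, against 0.46, -0.32 and 0.16 in replicates 1, 2 and 4 on the 7th day. Trs31, a subunit of the TRAPP tether, lay at -0.76, -0.48 and -0.94 in replicates 1 to 3 on the 14th day, against -0.14, 0.36 and 0.032 in replicates 1, 2 and 4 on the 7th day. The 3 values on the 14th day were close together for Vps4 (SD 0.037, n = 3) and wider apart for Trs31 (SD 0.23, n = 3). Both genes stood above the 7th day with replicates 2 and 3 turned, by 0.12 and 0.13.

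IntS9, a subunit of the Integrator complex, averaged -0.70 (SD 0.23, n = 3) on the 14th day and 0.035 (SD 0.28, n = 3) on the 7th day. CG12301 averaged -0.79 (SD 0.27, n = 3) on the 14th day and -0.032 (SD 0.25, n = 3) on the 7th day. For mtTFB2, a mitochondrial transcription factor, these means were -0.59 (SD 0.40, n = 3) and 0.094 (SD 0.26, n = 3), and for dgt3, a subunit of augmin, -0.57 (SD 0.49, n = 3) and -0.019 (SD 0.25, n = 3). CG2972 averaged -0.56 on the 14th day, with replicate 1 at -1.45 and replicates 3 and 4 at -0.025 and -0.21. CG3092 was the 1 named gene above 0, at 0.10, 0.49 and 1.41 in replicates 1, 3 and 4 on the 14th day, against -0.10, -0.002 and 0.66 in replicates 1, 2 and 4 on the 7th day. The remaining 11, with 14th day means from -0.56 to -0.52, were ALiX, amn, CG3699, CG5768, CG7381, CG8042, gny, hyx, Klp98A, mRpL19 and rdhB.

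Groups of genes are described by counts and medians, beside 49.9% of all features with a difference above 0 and a median difference of -0.0012. No member of any list passed the test of the difference. Of 16 ribosomal protein genes tested, 12 had a positive difference (75%), and their median was -0.020 on the 14th day and -0.20 on the 7th day. By array the ribosomal median was 0.068, 0.11, 0.17 and -0.29 on the 14th day, against -0.23, -0.31, 0.0025 and -0.16 on the 7th day. The 14th day replicate 4 was as low as the 7th day arrays, and the median difference of 0.21 was 0.054 without replicates 2 and 3.

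RpL27 lay at 0.14, 0.17, 0.37 and -0.27 on the 14th day, against -0.32, -0.48, 0.014 and -0.050 on the 7th day, and RpL15, RpL24-like and RpS15Ab had differences of 0.26 to 0.30. None of these reached an unadjusted p under 0.05. Of 22 translation factors, 17 stood above (77.3%), with medians of 0.023 on the 14th day and -0.12 on the 7th day. Without replicates 2 and 3 their 14th day median was -0.089 and with them turned -0.11, and the median difference of 0.13 was then 0.066 and 0.0099. Among them eEF1delta, a subunit of the exchange factor of elongation, lay at -0.021, 0.38, 0.24 and -0.10 on the 14th day, against -0.78, -0.44, -0.28 and -0.076 on the 7th day, and overlapped between the days. The initiation factor subunits eIF3g1, eIF3f1 and eIF3i had differences of 0.47, 0.57 and 0.36, and that of eIF3f1 was -0.044 with replicates 2 and 3 turned.

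Of 15 proteasome subunits, 10 stood above (66.7%), with medians of -0.055 on the 14th day and -0.17 on the 7th day; without 7th day replicate 1 the median difference of 0.10 was -0.0098. Prosbeta5, a subunit of the catalytic core, lay at -0.17, 0.33, 0.19 and -0.018 on the 14th day, against -0.57, -0.63, -0.44 and -0.047 on the 7th day. Prosalpha5 and the regulatory ATPase Rpt2 differed by 0.57 and 0.52, while Prosalpha4 differed by -0.45. Mitochondrial ribosomal proteins were divided, with 12 of 22 above (54.5%) and a median difference of 0.055, which was -0.045 with a dye term for each day and -0.019 without 14th day replicate 2. Besides mRpS34, mRpS33 differed by 0.67, and mRpL19 and mRpL20 differed by -0.62 and -0.83, both without a value on 14th day replicate 4.

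Of 21 respiratory chain and ATP synthase genes, 17 stood above (81%), with medians of 0.026 on the 14th day and -0.091 on the 7th day. ATPsynC, a subunit of the membrane ring of ATP synthase, lay at 0.26, 0.23, 0.56 and -0.17 on the 14th day, against -0.22, -0.61, -0.13 and -0.63 on the 7th day. Its 14th day replicate 4 fell among the 7th day arrays. ATPsynbeta, ATPsynD and ND-ASHI, a subunit of complex I, differed by 0.57, 0.41 and 0.54, and with replicates 2 and 3 turned ATPsynbeta and ND-ASHI stood at -0.034 and -0.039, the median of the list at -0.030.

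Of 10 genes of glycolysis and gluconeogenesis, 7 stood above (70.0%), with medians of 0.062 on the 14th day and -0.15 on the 7th day. Enolase (Eno) lay at 0.17, 0.30, 0.48 and 0.070 on the 14th day, against -0.98, -0.15 and -0.25 in replicates 2 to 4 on the 7th day. Pyruvate carboxylase (PCB) differed by 0.54. Phosphofructokinase (Pfk), which commits sugar to glycolysis, went against the list, with -0.38, -0.21, -0.52 and -0.37 on the 14th day, against 0.28, 0.36, 0.38 and -0.21 on the 7th day. All 4 of its 14th day arrays were below 0 and 3 of 4 7th day arrays above it, at a difference of -0.57 (SE 0.18, unadjusted p = 0.0108). The median difference of this list, 0.33, was -0.020 with replicates 2 and 3 turned.

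In the citric acid cycle list 5 of 8 stood above (62.5%). SdhD and SdhC, both membrane anchors of succinate dehydrogenase, differed in opposite directions. SdhD lay at 0.089, 0.23, 0.17 and 0.18 on the 14th day, against -0.10, -0.40, -0.074 and -0.22 on the 7th day (difference 0.37, SE 0.16). SdhC lay at -0.18, 0.22, -0.057 and -0.28 on the 14th day, against 0.070, 0.52, 0.26 and -0.092 on the 7th day (difference -0.26, SE 0.19). The list's array medians lay between 0.086 and 0.18 on the 14th day, against -0.28 to 0.17 on the 7th day. Mdh1, the cytosolic malate dehydrogenase, differed by 0.43 with wide spread on the 14th day.

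Fat body genes were few, with 8 of 18 named members tested and 5 above (62.5%), and their median difference of 0.11 was -0.0098 without 7th day replicate 4. Yp3, a yolk protein, lay at 0.51, 0.35 and 0.47 in replicates 1 to 3 on the 14th day, against -1.28, -1.44, -0.51 and 0.91 on the 7th day. Its 7th day replicate 4 stood above the 14th day arrays, and its difference of 1.02 had an SE of 0.49. The lipophorin gene apolpp lay at 0.58, -0.31, 0.69 and 0.39 on the 14th day, against -0.63, -0.39, 0.25 and -0.34 on the 7th day. The female fat body gene fit lay above 0 on 4 of 4 arrays on the 14th day, at 0.36, 0.15, 0.19 and 0.95, against -0.60, -0.40 and 0.73 in replicates 1, 3 and 4 on the 7th day. For all 3 the 7th day arrays were widely spread and the days overlapped, and Fbp2 differed in the other direction, by -0.61.

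CROT, carnitine O-octanoyltransferase of fatty acid oxidation, stood at -0.066 (SD 0.37, n = 4) on the 14th day and at -0.11 (SD 0.32, n = 3) on the 7th day. Its difference of 0.045 (SE 0.25) was smaller than its error, and its sign was not stable when single arrays were left out. The lipase gene bmm had 1 value on the 14th day and 0 on the 7th day and could not be tested.

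The lists of detoxification and of cuticle genes stood mostly below the 7th day. Of 40 genes of xenobiotic metabolism, 14 stood above and 26 below (35% above), with medians of -0.052 on the 14th day and 0.085 on the 7th day. Their 14th day median was 0.082 without replicates 2 and 3 and 0.051 with them turned, and the median difference of -0.11 was -0.045 in both settings. GstD1 and Cyp6a19 differed by 0.62 and 0.43, against the list, and Cyp6a13 and the glucuronosyltransferase gene Ugt305A1 by -0.87 and -0.51. Of 32 cuticle and pigment genes, 8 stood above and 24 below (25% above), with medians of -0.034 on the 14th day, 0.029 without replicates 2 and 3, and 0.067 on the 7th day. Cpr50Cb, a cuticle protein, lay at -1.88, -1.50, -0.65 and 0.13 on the 14th day, against -0.23, -0.26 and 0.14 in replicates 1, 2 and 4 on the 7th day. Cpr73D and TwdlT differed by -0.43 each, and Cht6, a chitinase, by 0.36. As deposited, without centring, both lists stood above 0, at 0.13 and 0.18, and the median of all features stood at 0.19.

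Genes of GABA and glutamate signalling showed no common direction. Of 7 tested, 4 stood above (57.1%), led by Gs1, Gs2 and Gdh, enzymes of glutamate metabolism. No gene of a GABA receptor is among those described here. GluClalpha, a glutamate-gated chloride channel, lay at -0.18, -0.41, 0.092 and -0.68 on the 14th day, against 0.47, -0.050, 0.31 and 0.030 on the 7th day, at a difference of -0.48 (SE 0.21). Its days overlapped. Gs2, a glutamine synthetase of glia, differed by 0.33 (SE 0.23) and Gdh by 0.29 (SE 0.17).

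Of 9 muscle genes, 6 stood above (66.7%), among them Act79B and Act87E, which share sequence with Act88F, at 0.27 and 0.14, and TpnC41C, a troponin C, at 0.23. The median difference of the list, 0.10, was -0.0025 without replicates 2 and 3 and -0.042 with them turned. Of 9 phototransduction genes, 6 stood above (66.7%), and their median difference of 0.18 was -0.12 with replicates 2 and 3 turned. Arr1, an arrestin, lay at 0.36, -0.048 and -0.48 in replicates 1, 3 and 4 on the 14th day, against -0.68, -0.38, -0.21 and -0.38 on the 7th day. Galphaq and inaC, the G protein and the protein kinase C of the light response, differed by 0.29 and 0.27, and santa-maria, a receptor needed for the visual chromophore, by -0.40; all 3 changed sign with replicates 2 and 3 turned.

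A longer list tied to the end of PTZ feeding came from the study itself, which chose genes lower on the 7th day from these same 7th day arrays, so that their 7th day values are no finding. The 14th day arrays played no part in that choice. Of the 412 listed genes tested here, 400 had a 7th day mean below 0 by this choice, at a median of -0.27. On the 14th day 142 were below 0 (34.5%), against 50.8% of all features, and the median was 0.050. Array by array, the listed genes had medians of -0.022, 0.18, 0.23 and -0.075 on the 14th day, against -0.39, -0.46, -0.13 and -0.12 on the 7th day. All 4 14th day arrays lay above all 7th day arrays. The choice of low 7th day values sets this separation in part, so it carries no test. The medians of all features on the 14th day arrays were -0.011, -0.0015, 0.0455 and -0.0105. For the listed genes only replicates 2 and 3 lay above 0. Without those replicates the median on the 14th day was -0.065, and with them turned it was -0.13.

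**Figure D5:**
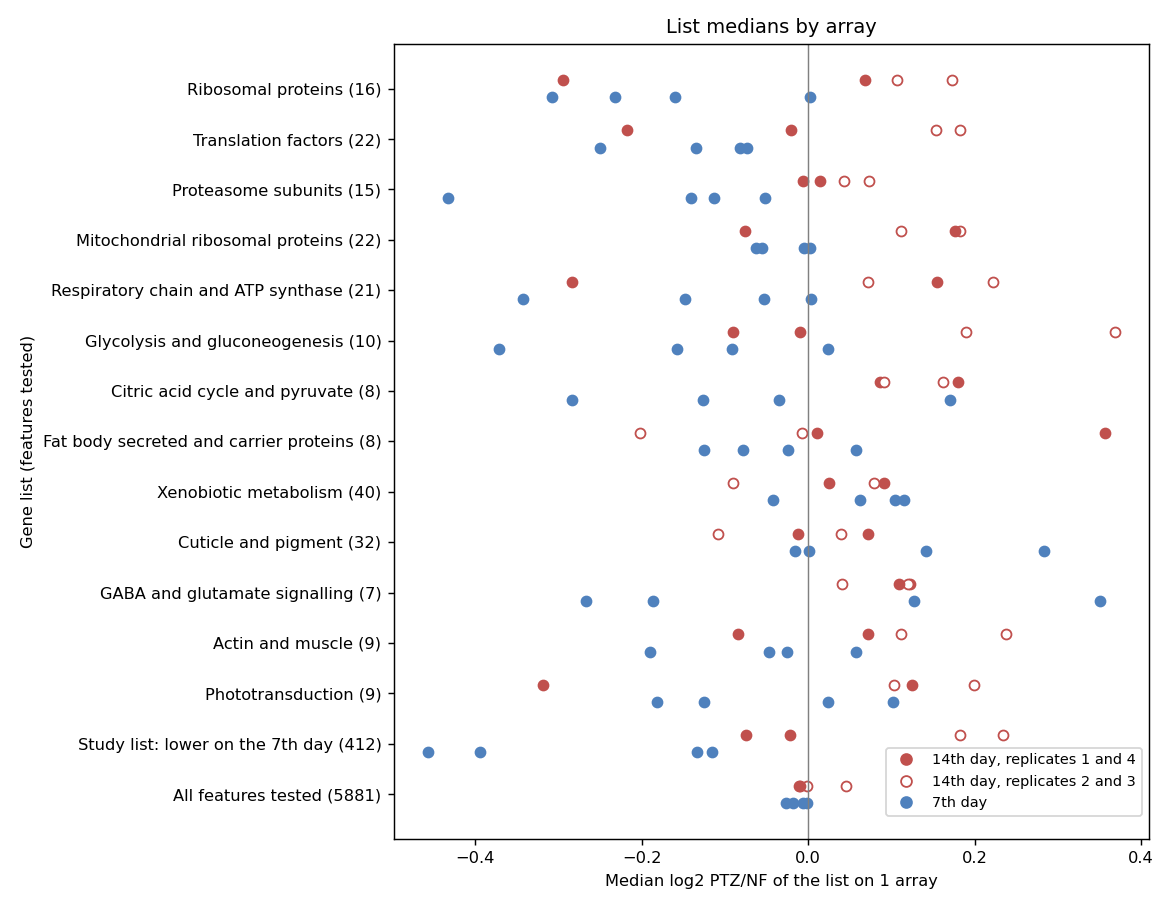
Median log2 PTZ/NF of each gene list on each array (horizontal axis), 14th day above 7th day in each list, with the number of features tested in brackets; open circles are 14th day replicates 2 and 3. For the list of genes the study chose as lower on the 7th day, the 14th day medians run from -0.075 to 0.23. Its 7th day medians, low by that choice, run from -0.46 to -0.12.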

How the data were processed

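The members and gene lists were chosen with earlier results of these data known. The authors scanned 2-colour cDNA arrays, quantified them in GenePix Pro, applied ratio-based normalization in Acuity and removed weak, saturated, flagged or uneven spots. The deposited values are log2 ratios of Cy5 over Cy3; no source used here gives their centring, and before any was applied the array medians lay between -0.008 and 1.568 for the 14th day and between 0.723 and 1.378 for the 7th. Their number of arrays limits the precision, and a missing value cannot be told from a weak spot. Here 53 values at the ceiling of 16.61 were set missing, arrays with PTZ in Cy3 were turned, values were centred on the array median, and rows of 1 gene, or neighbouring unnamed rows, were averaged. Gene names came from GEO's platform annotation, with symbols from the Release 6 gene table, used for names only; 222 rows kept an older symbol. The table leaves 12430 of 27648 rows unnamed and names several genes in 102, which were treated as unnamed.

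Features with at least 3 of 4 values on each day entered limma 3.58.1 (R 4.3.3, lmFit and eBayes, no covariate) on the 8 arrays of the days compared, and features with at least 3 values entered a test of each day against 0. Calls were made at a Benjamini-Hochberg adjusted p under 0.19. Per the labels, RNA came from pools of heads, each from several vials, so that p-values measure the spread between such pools. The functions were tested on simulated data of 5881 features, 200 of them changed. Over all features 153 calls were made, of which 24 were false, on features not changed. The simulated noise was independent between features. Genes were named by rule: 12 in each direction of the difference by smallest p among those with arrays that did not overlap, up to 10 that reversed, persisted or appeared, up to 4 of each list by smallest p, and mRpS34, CG30154, fit, CROT and bmm. Other names were given after their values were seen. Of 39 gene lists, 13 were described in full. The study's list had 793 entries, of which 743 matched a symbol. Alternatives covered centring, dye terms, thresholds, the number of arrays, eBayes settings, single rows, all 16 arrays in 1 fit, each array left out and a block for the replicate number. Leaving out or turning replicates 2 and 3 of the 14th day was added after seeing the data.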

Additional observations from a re-analysis of the deposited data

Results flagged for a closer look

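The genes named by rule and the described lists gave 124 sets of 4 arrays. The test used passes by chance alone in about 1 of 20 sets. Arrays far from the other 3 of their day were found in 6 sets. On the 7th day these were CG30154 in replicate 3, at 1.5, GstD1 in replicate 1, at -1.06, and Cyp6a13 in replicate 4, at -0.23. On the 14th day they were Cog4 in replicate 3, at -0.53, inaC in replicate 4, at -0.19, and the median of the GABA and glutamate list in replicate 2, at 0.041.

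Among the 82 tested genes named by rule, 7 that were measured on all 8 arrays had their days on opposite sides of 0. All 4 arrays of the 14th day lay on 1 side and all 4 of the 7th day on the other. Other genes were not examined for this, so the count has no share over all features. The arrays of the days did not overlap for 6.02% of all features. That is a wider rule, which asks for no side of 0 and for at least 3 arrays of each day, so it is no background for the 7. The difference was 0.86 for His2Av, 0.79 for HIP, 0.62 for CG5708, 0.61 for Act88F, 0.58 for CG2267, 0.53 for CG10214 and 0.37 for SdhD. Genes were named for such separation, and by limma none of these differences passed, with adjusted p-values of 0.648.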

How the results depend on the processing

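The difference between the days called 0 features in every setting except the values as deposited without centring, where limma called 1, dhd, at a difference of 4.32 (adjusted p = 0.100). An unadjusted p under 0.05 would pass 450 features for the difference, 141 for the 14th day and 612 for the 7th day. The 450 became 9 as deposited, 241 with all 4 arrays required (100 lower, 141 higher), 842 for single rows, 287 for named genes only, 124 without 14th day replicates 2 and 3 and 128 with them turned. With 1 array left out the count ran from 205 without 14th day replicate 3 to 740 without 14th day replicate 1, with 692 when 14th day replicate 4 and 290 when 14th day replicate 2 was dropped, and 218 and 271 when 7th day replicates 1 and 2 were. Against 0 on the 7th day, limma called 1 feature as deposited, 1 with centring on the mean, 2 with a shared dye term, 3 in a fit of all 16 arrays and 0 to 5 with 1 array left out, the 5 without 7th day replicate 1; the cause was not tested.

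The 141 features at an unadjusted p under 0.05 against 0 on the 14th day became 321 and 313 when 14th day replicates 1 and 4 were left out in turn, 94 without replicates 2 and 3, 613 with them turned and 1 with the trend and robust options, and the 612 on the 7th day became 1136 without 7th day replicate 4 (800 higher), 346 and 383 without 7th day replicates 1 and 2, 41 as deposited and 112 with those options.

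The replicate numbers were not used to pair the arrays, and the values on such a pairing were mixed. Deviations of same-numbered arrays correlated at 0.346, 0.29, -0.108 and 0.009, and 2 of 4 14th day arrays correlated best with their own number. With the replicate number as a block, 0 features were called and 681 had an unadjusted p under 0.05 (400 lower, 281 higher).

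The 9 reversals of 113 features became 51 of 477 with a mean of at least 0.3 and 1 of 14 with a mean of at least 1 log2 unit, 3 of 84 as deposited, 4 of 67 with all 4 arrays required, 15 without 14th day replicates 2 and 3 and 0 with them turned, which the 9 could not survive by construction. They ran from 9 to 52 with 1 array left out, the 52 of 520 without 7th day replicate 4 (10.0% against 7.96%), with 28 and 32 of 113 when 14th day replicates 1 and 4 were dropped in turn, while 141, 178 and 165 features were changed without 7th day replicates 1, 2 and 3. The 2 that persisted became 8, 0, 3, 1, 46 and 31 in the same 6 settings, and 2 to 9 with 1 array left out. The 36 that appeared became 176 at 0.3, 1 at 1 log2 unit, 117 as deposited, 4 with all 4 arrays, 176 without replicates 2 and 3 and 108 with them turned, and 24 to 214 with 1 array left out, the 214 without 14th day replicate 1.

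Of 82 genes named by rule, 22 changed the sign of their difference with 14th day replicates 2 and 3 turned. These stood at 0.12 for CG1544, 0.056 for CG1582, 0.10 for CG12301, 0.51 for PPO2, 0.13 for Trs31, 0.32 for IntS9, 0.12 for Vps4, 0.36 for mtTFB2, 0.47 for dgt3, 0.39 for mRpL19, 0.26 for mRpL20, 0.058 for Fbp2, 0.22 for Cpr50Cb, 0.014 for TwdlT and 0.26 for santa-maria. Below 0 were RpL15 at -0.048, eIF3f1 at -0.044, ATPsynbeta at -0.034, ND-ASHI at -0.039, Act79B at -0.093, Galphaq at -0.12 and inaC at -0.23. Act79B stood at -0.032 without both arrays. As deposited, 5 changed sign, to 0.079 for Dnali1, 0.36 for CG12301, 0.20 for Ugt305A1, 0.30 for santa-maria and -0.16 for CROT. CROT also stood at -0.14 when 14th day replicate 4 was left out, and at -0.069 and -0.026 when 7th day replicates 1 and 4 were. The spread between arrays had a median SD of 0.31 on the 14th day and 0.26 on the 7th day, and the median SE of a difference was 0.23.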
